A study of Mus musculus with 6 samples.

Results

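Genes of a chosen set that build, modify or activate fatty acids had a median log2 fold change of −0.59, and those that burn them −0.18. Medians over further tested genes outside the set were −0.07 for synthesis and −0.20 for mitochondrial oxidation. Fold changes compare mouse lung endothelial libraries labelled CSE-KO with those labelled WT. The set holds 35 genes of the 18956 in the deposited table, matched by gene symbol and all present. Of these, 19 belong to synthesis, desaturation, elongation and activation of fatty acids (the synthesis arm) and 16 to oxidation in mitochondria (the oxidation arm). RNA sequencing covered 6 libraries of lung endothelial cells isolated from mice, 3 labelled WT and Cre-negative and 3 labelled CSE-KO and Cre-positive. CSE is cystathionine gamma-lyase, the enzyme made from Cth, which releases cysteine from cystathionine. The labels name neither the strain, age and sex of the mice nor the Cre driver or any culture of the cells. Whether replicates came from separate animals is likewise not stated, so the p-values may reflect technical spread alone.

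Fatty acid synthesis starts in the cytosol, where acetyl-CoA carboxylase turns acetyl-CoA into malonyl-CoA and fatty acid synthase builds palmitate from it. Elongases and desaturases in the endoplasmic reticulum then lengthen the chains and place double bonds, and the transcription factor SREBP-1, made from Srebf1, is a known activator of many of these genes in mouse liver. Oxidation runs the other way in mitochondria: the carnitine shuttle imports acyl groups, a cycle of 4 reactions shortens them, and electron transfer flavoprotein passes the electrons to the respiratory chain. Malonyl-CoA inhibits the entry step of the shuttle, which links both routes. In endothelial cells, fatty acid oxidation is known to supply carbon for nucleotide synthesis during vessel growth.

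Values are whole numbers read as normalized counts, that is reads per gene divided by a factor for the size of the library and rounded. This reading was inferred from the values. WT libraries totalled 6028772 to 6052275 normalized counts, and CSE-KO libraries 5698922 to 5765008. Each ± is an SD over 3 libraries. Below, 3 values set against 3 others are WT 1, 2 and 3 against CSE-KO 1, 2 and 3. Cth was at 29, 27 and 26 against 49, 43 and 63, so it was higher in the group labelled as its knockout. A value summed over the whole gene does not check a deletion of part of it, so "WT" and "CSE-KO" below mean the libraries so labelled, and directions are CSE-KO relative to WT. Replicates of WT differed by less than counting noise (mean variance over mean 0.719 across 13121 genes), and by about as much as counting noise among genes with under 0.01 counts per exonic base (0.964). With the WT libraries averaged and counted as 1 sample, 8845 genes were called in all, beside 10639, with 16 in the synthesis and 11 in the oxidation arm, beside 17 and 12. All spread in that fit comes from the CSE-KO libraries, and the lone WT sample is assumed to vary like them. The same index was 0.862 between CSE-KO 2 and 3 and 1.64 and 1.93 between CSE-KO 1 and these, so CSE-KO 1 stood apart. Among the genes of low density CSE-KO 2 and 3 differed by more than counting noise (1.11). The index between CSE-KO 1 and these was 1.13 and 1.28 there, so CSE-KO 1 stood apart less.

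Endothelial markers were detected in every library (12 of 12), with a summed level of 19741 to 20165 in WT and 13298 to 14132 in CSE-KO. Of these, 11 fell and 0 rose. For this and the marker counts below, 39.0% of all tested genes fell and 38.3% rose. The endothelial markers changed unevenly, from Tek at 33.8% of its WT mean to Emcn at 101%, which was not called. Kdr was at 45.7%, Pecam1 at 81.2% and Cdh5 at 94.5%. Macrophage markers moved the other way, from a sum of 366 to 437 in WT to 1385 to 1711 in CSE-KO (11 of 12 tested rose). Among them, Ptprc, Adgre1 and Itgam were at 0 in all WT libraries. These genes, Csf1r, Mpeg1, C1qa, C1qb and C1qc were tested only because they reached 10 in the CSE-KO libraries. That they were higher there was thus fixed by the filter. Mesothelial markers summed to 208 to 223 in WT and 796 to 952 in CSE-KO (5 of 5 tested rose). Of these, Msln, Upk3b and Wt1 were likewise tested only through CSE-KO. Fibroblast and mural markers summed to 1415 to 1502 in WT and 1862 to 2264 in CSE-KO (3 rose and 2 fell of 9). Cspg4, which fell, was tested only through WT. Of 9 alveolar type 2 markers only Abca3, Etv5 and Lamp3 were in the table, summing to 1940 to 1961 in WT and 828 to 998 in CSE-KO. Most of the sum was Abca3 (mean 1581 in WT and 712 in CSE-KO). Sftpc, Sftpa1, Sftpb, Sftpd, Slc34a2 and Napsa were absent from the table. Of 7 adipocyte markers only Adrb3 and Plin4 were in the table, summing to 67 to 75 in WT and 11 to 23 in CSE-KO. The part of these shifts in the values of the fatty acid genes was not tested. In bulk libraries, fewer cells of a type and less RNA of its marker genes per cell cannot be told apart.

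Calls of a change rest on an adjusted p under 0.05 in a limma fit over all 13750 genes tested, on log2(value + 0.5). All 35 fatty acid genes passed the filter on low values. In this comparison 77.4% of all tested genes were called, 38.3% as rises and 39.0% as falls, so a call alone says little about a gene, and direction and size carry more. Of the synthesis arm 15 genes fell, 2 rose and 2 were not called, with a median log2 fold change of −0.59. Of the oxidation arm 9 fell, 3 rose and 4 were not called, with a median of −0.18. The median over all tested genes was 0.00. Falls of at least 2-fold numbered 7 of 19 in the synthesis arm and 2 of 16 in the oxidation arm, beside 12.3% of all tested genes. The libraries of the groups did not overlap in 17 of 19 and 12 of 16 genes, beside 80.4% of all tested genes. None of the 35 rose by as much as 2-fold. The synthesis counts of falls, 2-fold falls and genes without overlap include Acacb. It passed the filter only through WT, so it had to differ.

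**Figure D1:**
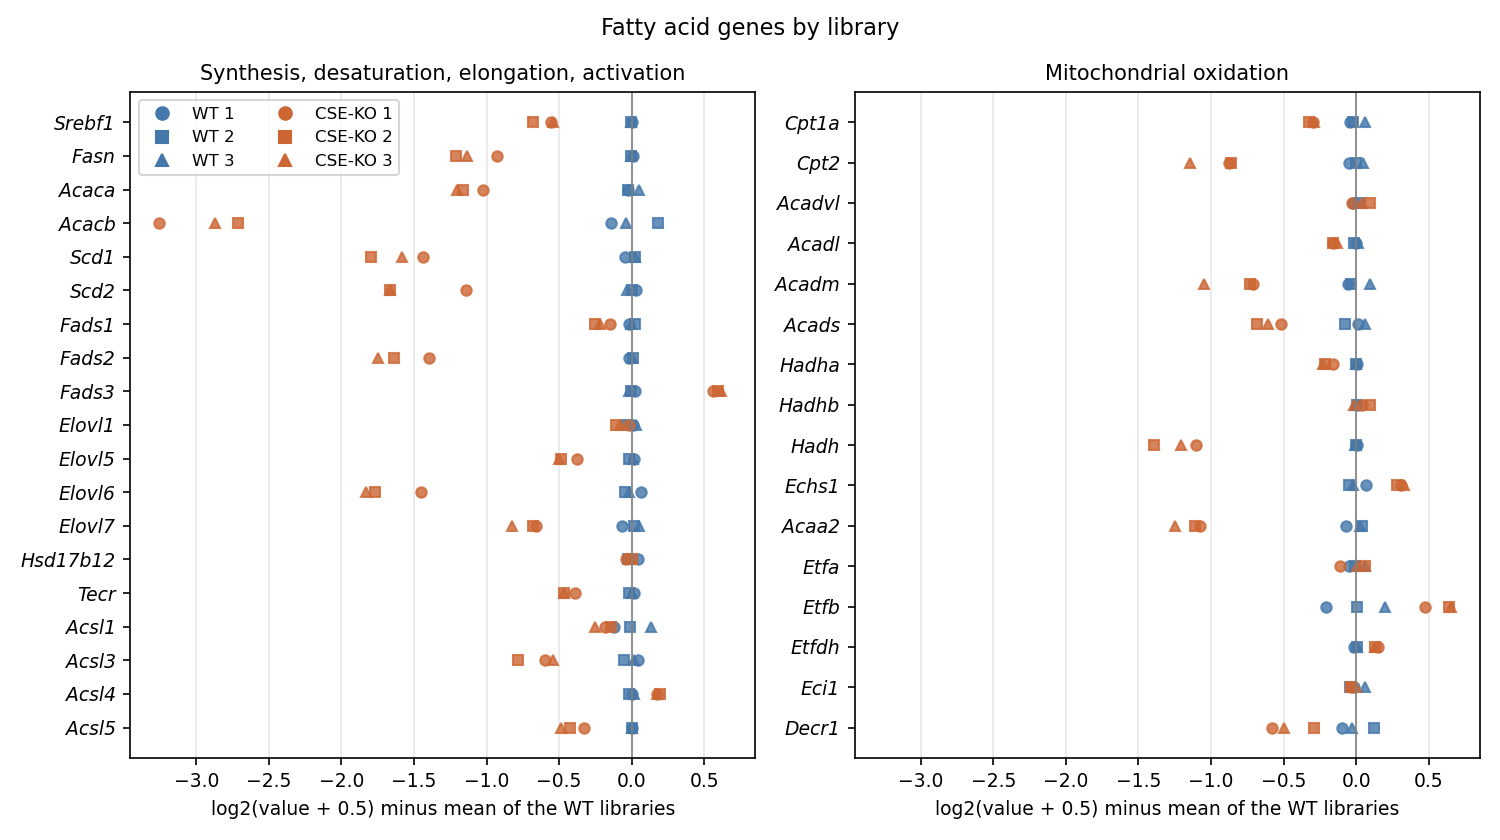
Each row is a gene and each symbol a library, placed at its log2(value + 0.5) minus the mean of the WT libraries, with the synthesis arm on the left and the oxidation arm on the right. Acacb lies furthest to the left, with a log2 fold change of −2.95, and Fads3 and Etfb furthest to the right at 0.59 each.

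Averaged over its 19 genes, the synthesis arm stood at 9.39, 9.40 and 9.41 on the log2(value + 0.5) scale in the WT libraries, against 8.70, 8.60 and 8.60. Over its 16 genes the oxidation arm stood at 8.35, 8.38 and 8.42 against 8.09, 8.11 and 8.06. Every CSE-KO library was below every WT library in both averages. The gap between the arms was 1.01 ± 0.024 (SD, n = 3) in WT and 0.55 ± 0.058 in CSE-KO, a difference of −0.46. The synthesis average includes Acacb (log2 fold change −2.95), which passed the filter on low values only through WT and so had to differ. No average was taken without it. No p is given for these averages, because the genes were chosen with results of these data known.

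**Figure D2:**
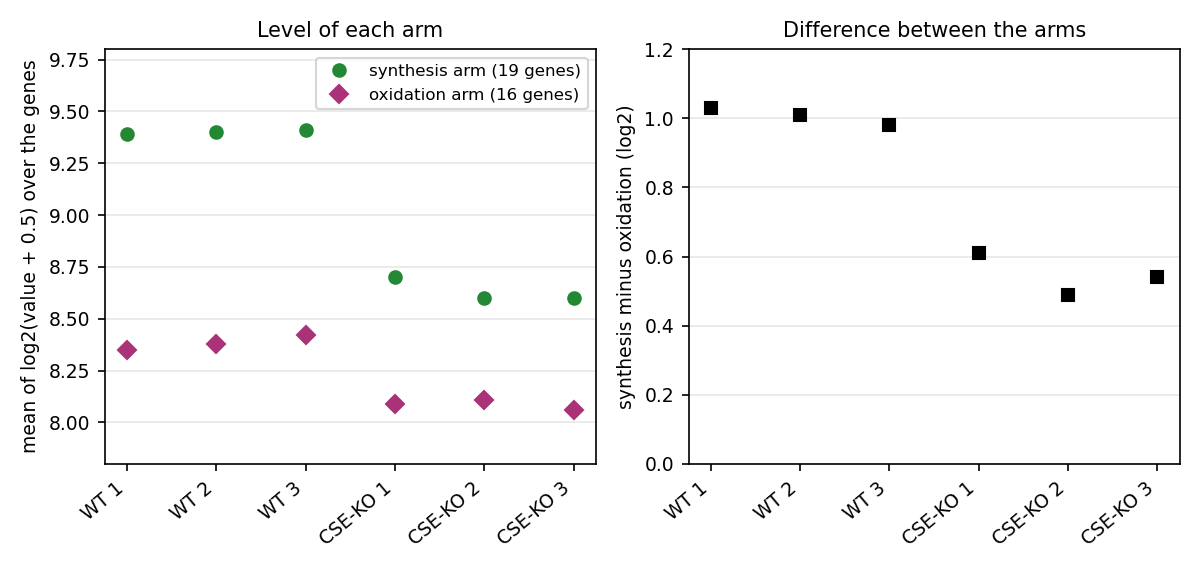
The left panel shows the mean of log2(value + 0.5) over the genes of each arm in each library, and the right panel the synthesis mean minus the oxidation mean. Synthesis lies 0.98 to 1.03 above oxidation in the WT libraries and 0.49 to 0.61 above it in the CSE-KO libraries.

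Genes of the enzymes that make malonyl-CoA and palmitate fell by more than 2-fold. Fasn, fatty acid synthase, was at 3309, 3265 and 3272 against 1725, 1417 and 1498 (log2 fold change −1.09, SE 0.08, adjusted p = 6.3e-05). The groups lay far apart, and CSE-KO 1 was the CSE-KO library nearest to WT. Acaca, the cytosolic acetyl-CoA carboxylase, was at 652, 651 and 688 against 326, 296 and 288 (−1.13, SE 0.05, adjusted p = 7.8e-09). Acacb, the carboxylase at the mitochondrial outer membrane whose malonyl-CoA is known to restrain the carnitine shuttle, was at 56, 70 and 60 against 6, 9 and 8 (−2.95, SE 0.22, adjusted p = 3.4e-07). It was the least abundant of the 35 per transcript length in both groups and passed the filter only through its WT values, so it had to differ. The ratio of Acacb to Acaca was 0.0935 ± 0.0121 in WT and 0.0255 ± 0.00631 in CSE-KO. Srebf1 itself was at 901, 897 and 896 against 612, 561 and 617 (−0.59, SE 0.04, adjusted p = 1.1e-07).

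Of 5 desaturase genes, 4 fell and 1 rose. Scd1 and Scd2, the stearoyl-CoA desaturases that make oleate, lie 87590 bases apart on chromosome 19. Scd2 stood at 2124, 2080 and 2039 against 945, 655 and 655 (log2 fold change −1.49, SE 0.17, adjusted p = 0.0011), with CSE-KO 1 well above the other CSE-KO libraries. Scd1 was at 610, 642 and 642 against 233, 181 and 210 (−1.61, SE 0.08, adjusted p = 1.4e-07). The ratio of Scd1 to Scd2 overlapped between the groups, at 0.287 to 0.315 in WT and 0.247 to 0.321 in CSE-KO.

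The front-end desaturase genes form one cluster on chromosome 19, where Fads2 and Fads1 fell and Fads3 rose. Fads2, the delta-6 desaturase that opens the pathway, was at 760, 773 and 771 against 291, 247 and 228 (log2 fold change −1.59, SE 0.08, adjusted p = 2.7e-07). Fads1, the delta-5 desaturase that acts after it, was at 857, 885 and 865 against 785, 728 and 746 (−0.21, SE 0.03, adjusted p = 0.00017). Fads3, which is known to desaturate sphingoid bases, was at 755, 742 and 734 against 1096, 1124 and 1140 (0.59, SE 0.03, adjusted p = 1.0e-08) and rose in every CSE-KO library. Per kilobase of principal transcript, Fads1, Fads2 and Fads3 stood at 251, 244 and 202 normalized counts in WT, and in CSE-KO at 218, 81.1 and 304. Fads3 per Fads2 count was 0.968 ± 0.022 in WT and 4.44 ± 0.624 in CSE-KO, and Fads1 per Fads2 count was 1.13 ± 0.012 against 2.97 ± 0.288. Fads3 and Fads2 run towards each other, with 2654 bases between their annotated ends, and Fads1 starts 81141 bases beyond Fads2.

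**Figure D3:**
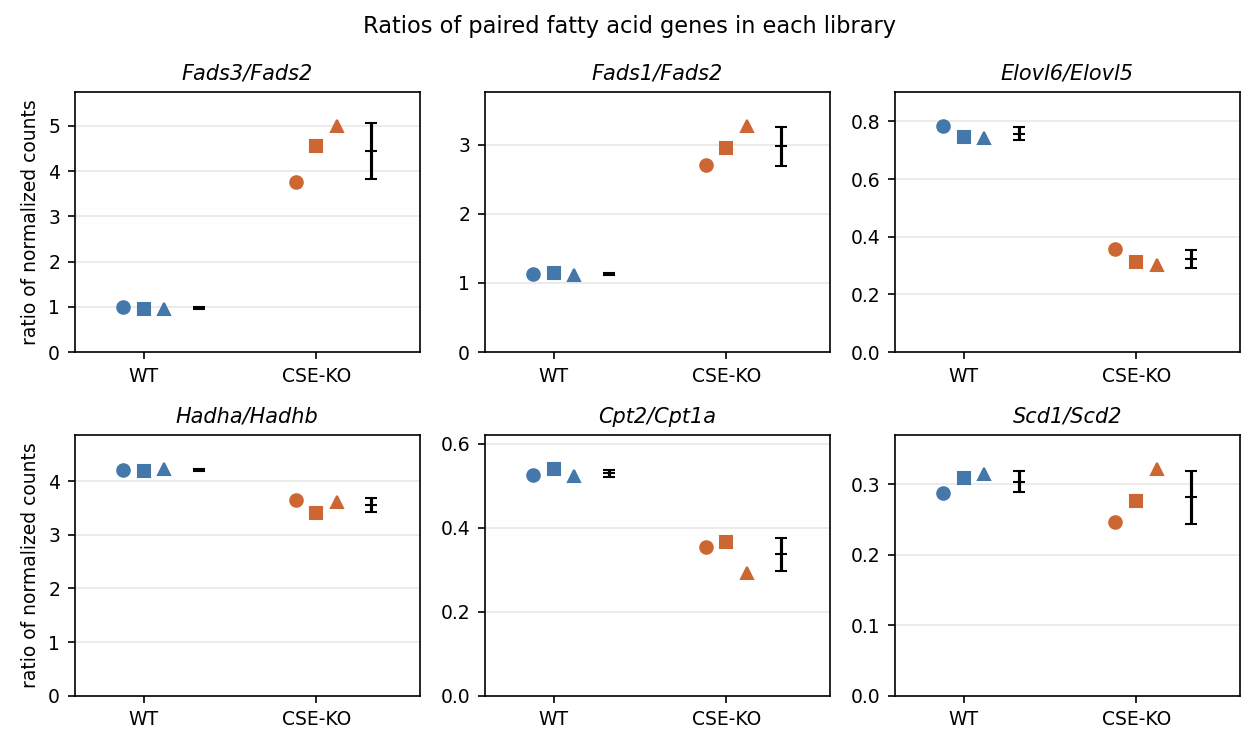
Each panel gives the ratio of the normalized counts of a pair of genes in each library, with the mean and SD of the group as a bar beside the points. The Fads3/Fads2 ratio lies between 0.952 and 0.993 in WT and between 3.77 and 5.00 in CSE-KO, whereas the groups overlap in Scd1/Scd2.

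The promoter of Fads3, the cluster gene that rose, and that of Fasn, which fell, are shown to set letters beside the opposite directions. The bases run 5′ to 3′ on the strand of the gene from RefSeq promoter windows on GRCm38.p6 (chr19:10041298-10041547 on the plus strand for Fads3 and chr11:120824548-120824797 on the minus strand for Fasn), ending at the base before the RefSeq start site. Capitals mark the CCAAT box (CCAAT) and the GC box (GGGCGG) on either strand.
Fads3: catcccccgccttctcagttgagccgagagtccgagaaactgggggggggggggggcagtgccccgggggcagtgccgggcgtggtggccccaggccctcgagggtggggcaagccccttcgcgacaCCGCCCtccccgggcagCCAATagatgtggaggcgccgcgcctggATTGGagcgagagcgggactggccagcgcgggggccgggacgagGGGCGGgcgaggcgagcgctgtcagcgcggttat
Fasn: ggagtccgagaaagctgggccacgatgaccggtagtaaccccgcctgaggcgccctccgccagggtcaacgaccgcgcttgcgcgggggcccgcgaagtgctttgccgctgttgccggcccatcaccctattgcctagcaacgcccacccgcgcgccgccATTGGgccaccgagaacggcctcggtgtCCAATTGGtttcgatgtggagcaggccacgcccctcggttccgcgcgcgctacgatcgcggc
The Fads3 window held 2 CCAAT and 2 GC boxes. The Fasn window held 3 CCAAT boxes, a pair of which overlap, and no GC box. This pair does not stand for the set. Windows of Acsl3 (5 GC boxes) and Elovl7 (3), which fell, held GC boxes, and that of Etfb, which rose, held none. Windows were not compared by direction.

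Across the set, 30 genes had a RefSeq window that was searched (16 of the synthesis and 14 of the oxidation arm), in 34 windows of 250 bases. Scd1, Scd2, Fads1, Acaa2 and Decr1 were not searched. For genes of the set only, windows on chromosome 18, where Acaa2 lies, were left out. A CCAAT box was found in 12 of 20 synthesis windows, 5 of 14 oxidation windows and 33.8% of all 32851 windows in the reference. A GC box was found in 12 of 20, 9 of 14 and 32.7%. The sterol response element TCACNCCAC was found in 1 synthesis window (a second start of Acsl1) and 0 oxidation windows, beside 1.05% of all. The E-box CACGTG was found in 1 (Elovl5), 0 and 6.02%, and the ERR element TCAAGGTCA in 0, 0 and 0.387%. The CARE letters TGATGNAA were found in 0 synthesis windows, 1 oxidation window (Echs1) and 3.45% of all. Both strands were read. A match is a run of letters, not a shown site.

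Of 6 elongation genes, 4 fell and 2 were not called. Elovl6, which extends palmitate to stearate, was at 808, 750 and 762 against 282, 227 and 217 (log2 fold change −1.68, SE 0.10, adjusted p = 2.4e-06), the largest fall among the elongation genes. Elovl7, an elongase of long saturated chains, was at 403, 426 and 436 against 267, 263 and 238 (−0.72, SE 0.06, adjusted p = 4.7e-07). Elovl5, which lengthens polyunsaturated chains, went from 1021 ± 12.3 to 746 ± 36.0 (−0.45). The ratio of Elovl6 to Elovl5 was 0.757 ± 0.0235 in WT and 0.324 ± 0.0306 in CSE-KO. Elovl1, the elongase of very long saturated chains, was at 620, 602 and 628 against 609, 572 and 584, overlapped between the groups and was not called (adjusted p = 0.10). It was called without CSE-KO 1 (adjusted p = 0.032).

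Some of the later steps of each elongation round are run by reductases. Tecr, the trans-2-enoyl-CoA reductase of the last step, fell from 468 ± 6.51 to 344 ± 10.1 (log2 fold change −0.44, SE 0.04, adjusted p = 1.8e-06). Hsd17b12, the 3-ketoacyl-CoA reductase of the same complex, was at 686, 652 and 656 against 647, 667 and 663 and was not called (−0.01, adjusted p = 0.75).

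Acyl-CoA synthetases activate fatty acids for either route and changed by less than 1.6-fold. Acsl3, which resides on the endoplasmic reticulum and lipid droplets, went from 329 ± 11.4 to 211 ± 17.8 (log2 fold change −0.64, SE 0.07, adjusted p = 5.1e-06). Acsl5 was at 1273, 1274 and 1274 against 1015, 948 and 908 (−0.41, SE 0.04, adjusted p = 1.3e-06). Acsl4, which prefers arachidonate and is known for its part in ferroptosis, was at 965, 949 and 973 against 1085, 1101 and 1086 and rose (0.18, SE 0.02, adjusted p = 4.8e-05). Acsl1 was at 247, 266 and 295 against 237, 243 and 225. Its small fall (−0.19, adjusted p = 0.025) was lost without WT 2 (adjusted p = 0.054), WT 3 (0.12) or CSE-KO 3 (0.082), with equal totals (0.14), with neither the mean trend nor the robust variances (0.060) and with the WT libraries counted as 1 sample (0.085).

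In the oxidation arm, both genes of the carnitine shuttle fell. Cpt1a, the malonyl-CoA-sensitive entry enzyme, was at 551, 557 and 591 against 461, 452 and 462 (log2 fold change −0.30, SE 0.04, adjusted p = 2.3e-05). Cpt2, which rebuilds acyl-CoA on the inner membrane, was at 290, 300 and 309 against 163, 165 and 135 (−0.96, SE 0.08, adjusted p = 8.1e-07). Cpt2 per Cpt1a count was 0.529 ± 0.00828 in WT and 0.337 ± 0.0392 in CSE-KO, with no overlap between the groups.

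The acyl-CoA dehydrogenases take the first step of the cycle, each on its own range of chain lengths. Acadm, for medium chains, was at 357, 362 and 396 against 227, 224 and 179 (log2 fold change −0.83, SE 0.09, adjusted p = 2.0e-05). Acads, for short chains, was at 369, 346 and 381 against 255, 227 and 240 (−0.60, SE 0.06, adjusted p = 3.0e-06). Those for longer chains moved less: Acadl went from 691 ± 7.51 to 622 ± 5.77 (−0.15, adjusted p = 0.00073), and Acadvl from 497 ± 8.02 to 510 ± 22.5 without being called (adjusted p = 0.43). Opposite-strand exons of Dvl2 cover 42.9% of the exonic length of Acadvl, and the strand setting of the counting is not stated.

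Past the first step, 3 of 5 genes fell, 1 rose and 1 was not called. Hadh, the hydroxyacyl-CoA dehydrogenase of short and medium chains, was at 383, 382 and 380 against 177, 145 and 165 (log2 fold change −1.24, SE 0.07, adjusted p = 4.4e-08), the largest fall of the arm. Acaa2, the thiolase that closes the cycle, was at 250, 269 and 267 against 124, 121 and 110 (−1.14, SE 0.07, adjusted p = 8.6e-08). Echs1, the short-chain enoyl-CoA hydratase that acts just before Hadh, was at 350, 322 and 328 against 412, 405 and 418 and rose (0.30, SE 0.05, adjusted p = 9.1e-05). In all 3 CSE-KO libraries Echs1 was above, and Hadh and Acaa2 below, every WT library.

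The long-chain cycle runs on the trifunctional protein, whose alpha and beta subunits come from Hadha and Hadhb. Hadha was at 1040, 1034 and 1034 against 927, 895 and 884 (log2 fold change −0.20, SE 0.03, adjusted p = 4.5e-05). Hadhb was at 247, 247 and 245 against 254, 263 and 244 and was not called (0.04, SE 0.05, adjusted p = 0.49). The count of Hadha per Hadhb was 4.21 ± 0.0176 in WT and 3.56 ± 0.135 in CSE-KO, and the groups did not overlap. The pair is divergent, with 85 bases between the annotated starts on chromosome 5.

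These 85 bases are shown because they lie upstream of both subunits, one of which fell while the other was not called. They are chr5:30155163-30155247 on GRCm38.p6, 5′ to 3′ on the plus strand, the strand of Hadhb, with GC boxes in capitals. Beside them stands the upstream sequence of Echs1 (chr7:140116477-140116671, minus strand, CARE and GC box in capitals). Of the windows of the set that were searched, only that of Echs1 held the CARE letters TGATGNAA, which ATF4 dimers are known to bind. Both come from RefSeq windows, without the bases that an annotated exon covers.
Hadha and Hadhb: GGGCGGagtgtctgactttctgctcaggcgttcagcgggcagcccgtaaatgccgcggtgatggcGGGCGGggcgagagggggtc
Echs1: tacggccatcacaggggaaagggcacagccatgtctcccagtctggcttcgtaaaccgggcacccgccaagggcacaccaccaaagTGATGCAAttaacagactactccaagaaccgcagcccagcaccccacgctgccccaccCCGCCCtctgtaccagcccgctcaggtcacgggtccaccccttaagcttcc
The stretch shared by Hadha and Hadhb held 2 GC boxes and no CCAAT box.

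Electron transfer flavoprotein accepts the electrons of the acyl-CoA dehydrogenases, and of its 3 genes 2 rose and 1 was not called. Etfdh, its membrane oxidoreductase, was at 443, 450 and 450 against 496, 490 and 490 (log2 fold change 0.14, SE 0.03, adjusted p = 0.0039), a call lost with the WT libraries counted as 1 sample, a fit with no WT spread (adjusted p = 0.058). Etfb, the beta subunit, was at 42, 49 and 56 against 68, 76 and 77 (0.59, SE 0.14, adjusted p = 0.0025). An annotated gene on the same strand, Gm45233, shares 53.0% of the exonic length of Etfb, so its level is uncertain. Etfa, the alpha subunit, went from 390 ± 15.7 to 386 ± 23.4 and was not called (adjusted p = 0.81).

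Unsaturated chains need extra enzymes to enter the cycle. Decr1, the 2,4-dienoyl-CoA reductase, was at 166, 194 and 174 against 119, 145 and 126 (log2 fold change −0.45, SE 0.09, adjusted p = 0.0010). Eci1, the enoyl-CoA isomerase, was at 235, 230 and 247 against 232, 232 and 237, overlapped and was not called (−0.02, adjusted p = 0.73).

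Levels per kilobase of the principal transcript show what the falls did to the order of the genes. In WT, Tecr (404 normalized counts per kb), Scd2 (381), Elovl5 (367) and Acadl (360) led the 35 genes. In CSE-KO, the leaders were Hsd17b12 (346), Elovl1 (325), Acadl (325) and Fads3 (304); of these Hsd17b12 and Elovl1 were not called. Scd2 went from rank 2 to rank 18, Fads2 from 12 to 25 and Fasn from 7 to 16, whereas Fads3 went from 18 to 4. Reads were summed over all transcripts of a gene, so a level per kb is approximate where several are used.

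**Figure D4:**
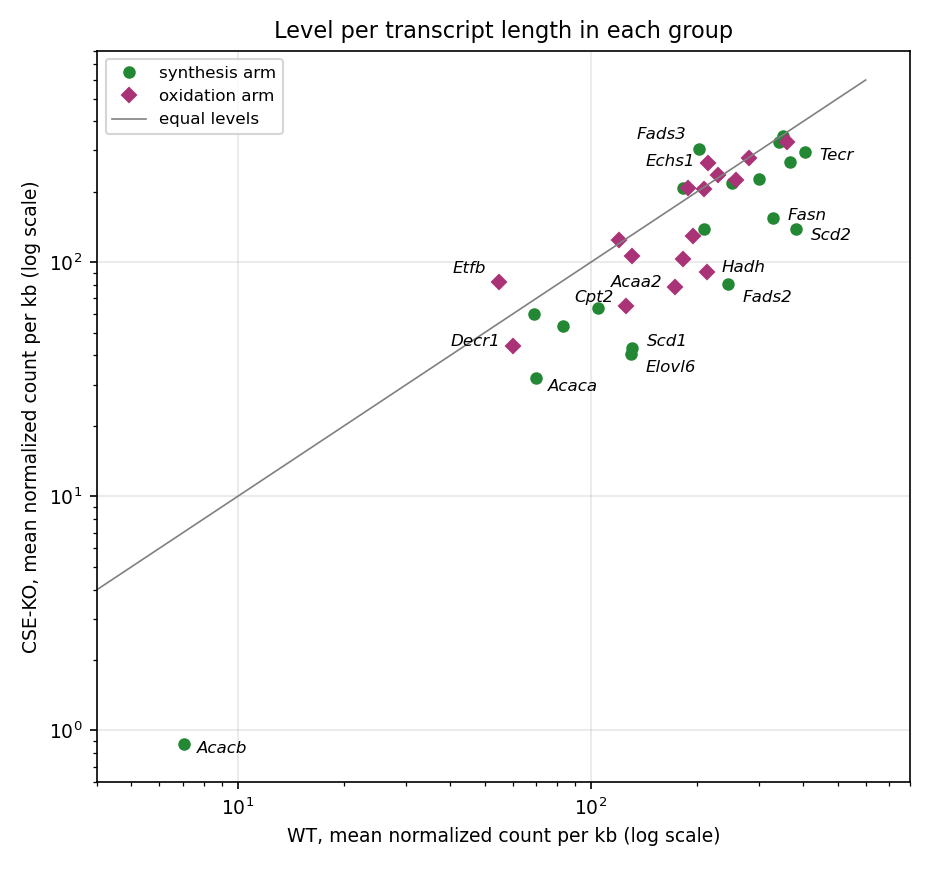
Each point is a gene at its mean normalized count per kb of principal transcript in WT (x axis) and CSE-KO (y axis), both on log scales, with the line of equal levels. Scd2, Fasn, Fads2, Scd1 and Elovl6 of the synthesis arm lie well below the line, Fads3 and Etfb above it, and Acacb at 7.06 against 0.872 is the lowest gene in both groups.

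CSE-KO 1 was the CSE-KO library with the highest value in 11 of the 15 synthesis genes that fell, and in 5 of the 9 oxidation genes that fell. Among all 18956 genes in the table, whatever their direction, it was highest in 6495 and lowest in 5823. The share among all genes that fell was not taken. Without CSE-KO 1, the synthesis arm had 18 genes called and the oxidation arm 12, beside 17 and 12 with all libraries.

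Other genes of the pathway were counted from lists, to be read beside the 38.3% of all tested genes that rose and 39.0% that fell. Of 21 tested further synthesis genes, 8 rose (38.1%) and 9 fell (42.9%), both near those shares (median log2 fold change −0.07). The citrate-cleaving enzyme Acly went from 1813 ± 22.9 to 1436 ± 27.4 (−0.34), the SREBP escort Scap from 770, 753 and 827 to 547, 523 and 534 (−0.55), and Nr1h3, the sterol-sensing receptor LXR alpha that activates Srebf1 in mouse liver, from 296 ± 22.4 to 81.0 ± 16.1 (−1.88, adjusted p = 6.2e-07). Elovl4, the elongase of very long polyunsaturated chains, was at 11, 6 and 9 against 106, 132 and 102 (3.66, SE 0.23, adjusted p = 7.7e-08). Elovl4 was 1 of 2 genes of this list that passed the filter only through their CSE-KO values.

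Of 20 tested further genes of mitochondrial oxidation and its control, 5 rose (25%) and 11 fell (55%), with a median of −0.20. In this list, 2 genes passed the filter only through WT. Pdk4, the kinase that spares glucose by switching off pyruvate dehydrogenase, was at 155, 189 and 154 against 796, 787 and 788 (log2 fold change 2.25, SE 0.07, adjusted p = 3.1e-09). Acot2, a mitochondrial thioesterase that releases free fatty acids, was at 23, 28 and 22 against 190, 170 and 171 (2.84, SE 0.13, adjusted p = 9.1e-09). The isomerase Eci2 went from 351 ± 18.6 to 226 ± 11.9 (−0.63), and Pparg, a nuclear receptor that fatty acids activate, from 478 ± 33.5 to 296 ± 6.11 (−0.69).

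Among peroxisomal oxidation genes 2 of 15 tested rose (13.3%) and 9 fell (60%), with a median of −0.35. Acox3, the oxidase of branched chains, was at 502, 499 and 514 against 309, 322 and 315 (log2 fold change −0.68, SE 0.04, adjusted p = 4.8e-08), with no overlap between the groups. Abcd2, a peroxisomal importer of very long chains, was at 125, 120 and 125 against 29, 30 and 20 (−2.23, SE 0.16, adjusted p = 2.8e-07).

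Uptake and storage genes rose in 9 (39.1%) and fell in 12 (52.2%) of 23 tested, with a median of −0.12. Dgat2, which completes triglyceride, stood at 47, 49 and 40 against 135, 148 and 139 (log2 fold change 1.63, adjusted p = 2.1e-07), and the lipid droplet coat gene Plin2 from 537 ± 8.14 to 747 ± 9.50 (0.48). Gpam, which starts glycerolipid synthesis, and the phosphatidate phosphatase Lpin2 fell, from 416 ± 13.1 to 249 ± 5.77 (−0.74) and from 989 ± 11.8 to 721 ± 10.6 (−0.45).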

How the data were processed

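The authors deposited 1 table with a whole-number score per gene and library, read here as a normalized count (reads over a size factor, rounded): recomputed median-ratio size factors were 1.003 to 1.008, and some whole numbers under 300 were never used in 3 libraries. No label states this unit. The submitters' processing notes name build mm10 and, with no role or order, DESeq2 1.26.0, featureCounts 1.6.5, Picard 2.21.7, STAR 2.7.3a and Trimmomatic 0.39. Removal of duplicate reads is not stated. Stranded mRNA libraries were made from total RNA, per the labels' protocols.

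Testing took genes that reached 10 in 3 or more libraries, with limma 3.58.1 in R 4.3.3 on log2(value + 0.5), with a linear model of group over all 6 libraries, moderated with a mean trend and robust variances, two-sided, Benjamini-Hochberg over all genes tested. The same fit was tested on simulated data in which few genes changed and both groups had the same spread. These data differ in both respects, so that test does not check the calls made here. Fold changes on this scale understate those of low genes. Gene lists and markers were chosen with earlier results of these data known. Besides the 35 genes and Cth, the 4 called genes of each further list with the smallest adjusted p are named, except 2 that are not reported here. Gene positions and lengths are from GENCODE mouse release 21, whose coordinates equalled the table's for all 35. Alternatives covered scaling, filters, pseudocounts, moderation, the fold tested against, left-out libraries and averaged replicates.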

Additional observations from a re-analysis of the deposited data

How the results depend on the processing

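Of the 17 synthesis and 12 oxidation calls, a test against a fold of 1.2 in place of no change left 14 and 6, and 6711 of the 10639 calls over all genes. Leaving out 1 library at a time gave 15 to 18 synthesis calls, 12 oxidation calls each time and 9676 to 10167 calls in all. Without any 1 WT library Acacb no longer passed the filter and was not tested, which takes 1 call from the synthesis count. The genes that lost their call at a fold of 1.2 were Fads1, Acsl1, Acsl4, Cpt1a, Acadl, Hadha, Echs1, Etfdh and Decr1. With equal totals, where the median of all genes moved from 0.00 to 0.08 (log2), 4 genes that were not called turned sign: Elovl1 (log2 fold change 0.0056), Hsd17b12 (0.062), Etfa (0.059) and Eci1 (0.052), and Acadvl became a rise (0.11, adjusted p = 0.034). These follow from the rescaling, which raises the CSE-KO libraries relative to WT. Leaving out 1 library put Hsd17b12 between −0.026 and 0.011 (above 0 without WT 1 or CSE-KO 1), Etfa between −0.053 and 0.033 (above 0 without WT 3 or CSE-KO 1) and Eci1 between −0.044 and 0.0072 (above 0 without WT 3). The cause of these turns without a library was not tested. None of the 29 called members changed direction under any alternative in which it was tested. The difference between the arms was −0.43 to −0.49 under scaling, pseudocounts and a correction for reads that share a start position, the latter added after the data were seen, as was counting CSE-KO 2 and 3 as 1 sample, which kept all 35 labels of call and direction. That correction moved Fasn to −1.23 and Scd2 to −1.72. The replicate numbers of the labels did not pair the libraries (correlations of same-numbered deviations −0.0008, 0.020 and 0.011 over genes), and with the replicate block 17 synthesis and 12 oxidation genes and 10440 in all were called. Depth is known only as totals of normalized counts.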

Other observations

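Some genes of fatty acid supply outside the naming rule were picked after their values were seen. Lpl, lipoprotein lipase, was at 15, 12 and 7 (WT libraries) against 63, 82 and 79 (log2 fold change 2.72, SE 0.26, adjusted p = 2.6e-06 by limma). Gpihbp1, which holds that lipase on capillary walls, was at 67, 66 and 54 against 7, 5 and 4 (−3.46, SE 0.25, adjusted p = 2.7e-07), so the enzyme and its anchor moved in opposite directions. Lpl passed the filter on low values only through CSE-KO, and Gpihbp1 only through WT. Macrophages are known to express Lpl, and the summed macrophage markers stood at 366 to 437 in WT and 1385 to 1711 in CSE-KO, whose part in the rise of Lpl was not tested. Mgll, monoglyceride lipase, was at 1272, 1302 and 1260 against 324, 174 and 128 (−2.72, SE 0.38, adjusted p = 0.0026), with CSE-KO 1 the nearest to WT. The fatty acid carriers Cd36 and Fabp4 went from 148 ± 7.55 to 138 ± 31.6 and from 617 ± 36.9 to 630 ± 16.1 and were not called (adjusted p = 0.46 and 0.53).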
